A study of Homo sapiens with 84 samples.

Results

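Later intron peaks are accessible sites that the study's peak annotation places in an intron other than the first of a transcript. They were taken from the authors' deposited annotation by their class (the word intron, with any intron number above 1) and joined to the count table by peak ID, with no use of the counts, which gave 301122 of 861439 peaks (34.96%). First introns held 139177 peaks (16.16%), intergenic sequence 281515 and promoters 48172.

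ATAC-seq, which reads open chromatin from the insertions of a transposase, was applied to cultured triple-negative breast cancer cell lines, tumours named for lacking estrogen receptor, progesterone receptor and HER2 amplification. The 9 lines were BT-20, BT-549, HCC1143, HCC1395, HCC1937, MDA-MB-231, MDA-MB-468, SUM-149PT and SUM-159PT. In all 9, cells given 5 uM tazemetostat, an inhibitor of the methyltransferase EZH2, together with 5 uM ipatasertib, an inhibitor of the kinase AKT (the combination), were compared with cells given DMSO, the solvent. In 4 of them (MDA-MB-231, MDA-MB-468, SUM-149PT and SUM-159PT) tazemetostat alone and ipatasertib alone were also measured, with 3 libraries in each of 26 groups. Tazemetostat or DMSO was started on day -5, ipatasertib was added on day 0 in medium with 2% FBS, and cells were collected at 24 hours. The design text gives this schedule for MDA-MB-468, and it is taken to hold for the other lines. No untreated cells besides DMSO are in the design, the lines differ in genotype as well as in response, and each is a culture with no stroma. The 6 libraries of HCC1806 were not analysed here.

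Introns downstream of the first hold a large share of a cell's distal regulatory elements, and such elements can act on the host gene, on a neighbour or on a start site inside the intron. EZH2 is the enzyme of the Polycomb complex PRC2 and places trimethylation on lysine 27 of histone H3 over developmental genes and over silent chromatin. AKT acts downstream of PI3K and, among other substrates, phosphorylates FOXO factors and EZH2.

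Windows around RefSeq gene starts (GRCh38.p14, the assembly behind the files' hg38) that lie wholly inside a later intron peak show what such peaks can contain: starts of other, often uncharacterised, genes nested in the host. In all, 277 later intron peaks held at least 1 such window. The 6 shown belong to the 3 largest rises and the 3 largest falls under the combination among changed peaks with a window, and they were chosen after their values were seen. Each runs 5′ to 3′ on the strand of the gene start, from 250 bases before to 50 after it, with CG dinucleotides, the sites of DNA methylation, in capitals.
LOC107984202 in PRKCQ: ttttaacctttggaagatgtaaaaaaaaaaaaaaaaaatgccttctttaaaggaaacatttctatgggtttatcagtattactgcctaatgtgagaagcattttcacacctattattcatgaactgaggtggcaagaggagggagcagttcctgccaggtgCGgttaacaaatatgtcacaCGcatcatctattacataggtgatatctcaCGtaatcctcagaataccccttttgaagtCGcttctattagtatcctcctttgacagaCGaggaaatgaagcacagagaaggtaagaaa
LOC107985991 in PAX3: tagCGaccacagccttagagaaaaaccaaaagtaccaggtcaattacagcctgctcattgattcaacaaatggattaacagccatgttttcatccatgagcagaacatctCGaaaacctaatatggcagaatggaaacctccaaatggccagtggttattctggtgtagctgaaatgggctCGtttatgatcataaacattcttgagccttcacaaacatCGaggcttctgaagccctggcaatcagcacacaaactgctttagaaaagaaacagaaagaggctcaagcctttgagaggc
LOC124903144 in MTUS2: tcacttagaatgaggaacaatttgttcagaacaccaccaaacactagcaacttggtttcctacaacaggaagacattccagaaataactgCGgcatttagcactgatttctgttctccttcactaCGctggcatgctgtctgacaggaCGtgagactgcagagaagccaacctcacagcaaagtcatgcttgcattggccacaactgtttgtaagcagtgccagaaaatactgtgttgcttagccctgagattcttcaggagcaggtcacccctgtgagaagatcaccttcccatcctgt
LOC105372339 in LOC105372337: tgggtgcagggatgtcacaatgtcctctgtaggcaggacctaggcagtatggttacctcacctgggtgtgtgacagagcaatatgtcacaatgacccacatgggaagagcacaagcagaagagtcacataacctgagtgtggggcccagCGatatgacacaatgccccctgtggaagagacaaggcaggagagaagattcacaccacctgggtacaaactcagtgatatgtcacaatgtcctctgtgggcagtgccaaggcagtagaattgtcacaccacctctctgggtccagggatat
LOC124904677 in RPSAP58: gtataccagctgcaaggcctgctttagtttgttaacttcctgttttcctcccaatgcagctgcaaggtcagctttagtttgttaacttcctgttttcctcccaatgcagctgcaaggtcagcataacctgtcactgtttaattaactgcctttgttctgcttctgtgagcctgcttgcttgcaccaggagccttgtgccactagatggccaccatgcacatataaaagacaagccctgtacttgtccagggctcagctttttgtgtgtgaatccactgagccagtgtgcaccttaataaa
PC in PC: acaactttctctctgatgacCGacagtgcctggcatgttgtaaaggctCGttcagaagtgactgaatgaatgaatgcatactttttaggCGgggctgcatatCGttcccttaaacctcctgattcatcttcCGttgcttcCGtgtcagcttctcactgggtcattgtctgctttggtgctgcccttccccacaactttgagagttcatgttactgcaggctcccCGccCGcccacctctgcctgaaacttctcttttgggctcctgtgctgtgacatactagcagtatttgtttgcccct

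The window inside intron 6 of 16 of PRKCQ, the gene of protein kinase C theta, lies at chr10:6492219-6492518 on the plus strand, starts LOC107984202 and holds 5 CG dinucleotides. The window in intron 7 of 8 of PAX3, a neural crest and muscle transcription factor, is at chr2:222213288-222213587 on the plus strand and starts LOC107985991. In intron 5 of 15 of MTUS2, a window at chr13:29140289-29140588 on the minus strand starts LOC124903144. Among the falls, the window at chr19:23565478-23565777 on the plus strand starts LOC105372339 in intron 3 of 4 of LOC105372337. The window at chr19:23824015-23824314 on the minus strand starts LOC124904677 in intron 3 of 3 of the pseudogene RPSAP58. It has 0 CG dinucleotides and a stretch of 52 bases that occurs again within the window. The last, at chr11:66905985-66906284 on the minus strand, is an internal start of PC itself, the gene of pyruvate carboxylase, in intron 3 of 22. The 293 windows inside later intron peaks had medians of 4 CG dinucleotides and 49.0% GC, against 14 and 58.7% over the 35116 windows of the RefSeq table.

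The letters of 10 motifs were counted on both strands in these windows, as a description. TGANTCA, bound by AP-1, occurred in 24.2% of the windows inside later intron peaks and in 7.71% of all windows, and CATTCC, bound by TEAD factors, in 24.9% and 14%. CAGGTG, the E-box of ZEB and SNAI factors, occurred in 22.2% and 20.6%, and AGNNGGCG, the core of the CTCF motif, in 13.0% and 30.9%. The GATA factor motif AGATAA occurred in 13.0% and 10.3%, the E-box CACGTG in 8.53% and 7.26%, and the forkhead motif TGTTTAC in 5.12% and 3.42%. The rarest were TTCCNGGAA (STAT) in 1.02% and 1.15%, TGACGTCA (CRE) in 0.341% and 1.85%, and ACCGGAAG (ETS) in 0% and 2.17%. The windows in PAX3 and PC each held TGANTCA, that in MTUS2 held CATTCC, those in PRKCQ and LOC105372337 held 1 and 2 copies of CAGGTG, and that in RPSAP58 held none of the 10. The 300-base windows are starts, so they do not represent the later intron peaks that hold none.

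The PRKCQ peak had 0.241 to 5.47 CPM under the combination (median 1.28) and 0.117 to 2.34 CPM in DMSO (median 0.348), where CPM is the TMM-scaled count of a peak relative to all reads in peaks of that line, at the usual CPM scale. It rose by 1.71 ± 0.181 on the log2 scale (SE; adjusted p 8.62e-05, edgeR quasi-likelihood test over 9 lines) and was higher in 9 of 9 lines. The PAX3 peak was low in every line, with 0.103 to 1.04 CPM under the combination and 0.0 to 0.168 CPM in DMSO, and rose by 1.55 ± 0.321 (adjusted p 0.00984, edgeR). The MTUS2 peak had 0.266, 1.85 and 12.8 CPM under the combination (lowest, median and highest line) and 0.231, 0.69 and 7.6 CPM in DMSO, a rise of 1.33 ± 0.207 (adjusted p 0.00212, edgeR). The ranges of the lines overlapped between treatments in all 3, since lines differed from each other by more than treatments did. The RPSAP58 peak had 0.0425, 0.541 and 3.86 CPM under the combination and 0.0242, 1.13 and 4.6 CPM in DMSO and fell in the test by 0.88 (log2 fold -0.88 ± 0.179, adjusted p 0.00918, edgeR), with 8 of 9 lines lower. The PC peak, with 0.382, 2.06 and 7.92 CPM under the combination and 0.352, 3.49 and 9.29 CPM in DMSO, had a log2 fold of -0.48 ± 0.128 (adjusted p 0.0368, edgeR). Of the 277 peaks with a start, 16 rose (5.78%) and 5 fell (1.81%), and 55 of the 277 held a start of their own host gene. Of the 251774 tested later intron peaks with no such start, 2.02% rose and 1.39% fell. Peaks with a start were also stronger, with a median log2 CPM of 1.27 against -1.68. Over all later intron peaks, rises were 3.63% at 1 to 2 log2 CPM and 1.39% under -1. The groups were not matched for level, and the difference was not tested.

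Libraries held 12292571 to 21459284 counts in peaks. Counts of replicates in a group differed by no more than the sampling noise of counts in 76 of 78 pairs (variance ratio below 1, median 0.85), with the exception of replicate 3 of HCC1395 in DMSO against replicates 1 and 2 (1.623 and 1.657). The 3 replicates were therefore summed and counted as 1 sample for each line and treatment, no label says that they came from separate cultures, and every p-value below measures the spread between lines. Promoters of the epithelial markers KRT18 and CDH1 were accessible in DMSO cells of the lines, with medians of 23.3 and 23.1 CPM, whereas those of EPCAM and KRT8 were low, with medians of 1.47 and 1.67 CPM. VIM and ZEB1, markers of a mesenchymal state, had promoter medians of 46.7 and 27.3 CPM. These promoters do not test the labelled breast origin. A bulk library cannot tell apart fewer cells with an open site from less accessibility in each cell.

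The later intron peaks were narrow, numerous and far from known starts. Their median width was 274 bp against 479 bp in promoters, and their median distance to the nearest annotated TSS (transcription start site) was 105858 bp, against 38549 bp in first introns and 50381 bp in intergenic peaks. The annotation calls a peak promoter out to 3000 bp, and the nearest later intron peak lay at 3001 bp from a TSS. Of all later intron peaks, 155946 (51.8%) were more than 100 kb away. Intron 2 held 88248 (29.3%), the last intron of the transcript 52071 (17.3%), and the median intron number was 4. A host gene with a symbol was given for 288393 of them, in 15479 genes, and for 272622 (90.5%) the host was also the gene of the nearest TSS. ATAC-seq has no strand, so where genes overlap the host is the transcript that the annotation chose.

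At baseline most of these sites were weak in any given line. Their median level over DMSO cells was 0.785 CPM per kb of peak, against 0.836 in first introns, 0.753 in intergenic sequence and 2.41 at promoters. With open defined as at least 1 CPM (raw, per total counts), 207575 (68.9%) were open in no line, 31009 (10.3%) in 1 line only and 9177 (3.05%) in all 9. The share open in all 9 lines was 3.93% of first intron peaks, 3.82% of intergenic peaks and 29.4% of promoters. Single lines had between 33019 open later intron peaks (11%, MDA-MB-468) and 43402 (14.4%, HCC1395). HCC1395 also had the most that were open in it alone, 5694 or 13.1% of its open sites, and SUM-149PT the fewest, 2036 or 5.41%.

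**Figure D1:**
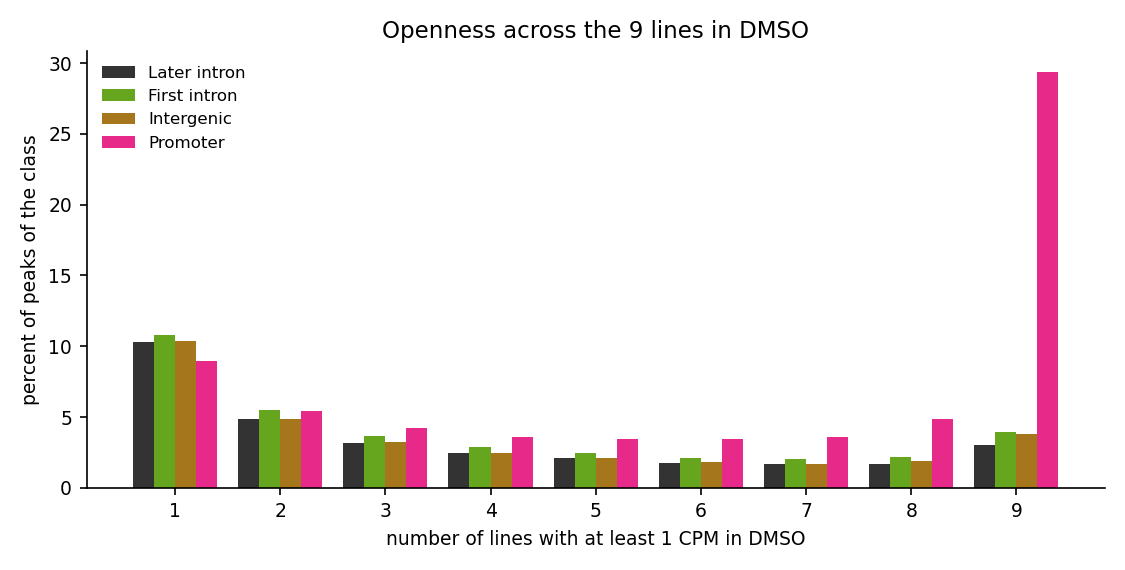
Accessibility of later intron peaks in DMSO cells. Bars give the percentage of later intron, first intron, intergenic and promoter peaks that had at least 1 CPM in exactly 1 to 9 lines (peaks open in no line are not drawn); 10.3% of later intron peaks were open in 1 line and 3.05% in all 9, where promoters reached 29.4%.

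The strongest sites per length were shared by the lines. A peak in intron 2 of 32 of PLEC, the gene of the cytolinker plectin, averaged 32.5 CPM per kb, with 19.6 to 41.5 CPM in DMSO over the lines (median 33.7). A peak in intron 4 of 9 of DLGAP1, a postsynaptic scaffold gene, averaged 29.9 CPM per kb, with 29.2 to 57.4 CPM, and another in intron 9 of 17 of PHF20 averaged 25.2 CPM per kb, with 21.1 to 41.7 CPM. Intron 2 of 8 of FOXK1, a forkhead factor gene, held a site of 23.9 CPM per kb with 21.6 to 47.1 CPM, and intron 4 of 4 of LOC105374894 a site of 24.5 CPM per kb. These 5 had log2 folds of -0.19 to -0.11 under the combination, and their adjusted p-values, from 0.0754 to 0.361 in edgeR, did not pass 0.05. The remaining site among the 6 highest, in intron 2 of 3 of LMNA (lamin A and C) at chr1:156125126-156125465, had 3.54, 8.82 and 14.4 CPM in DMSO (lowest, median and highest) and fell in the edgeR test by 0.41 under the combination (log2 fold -0.41 ± 0.0929, adjusted p 0.0172).

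Other sites stood out in 1 line. In DMSO, a peak in intron 6 of 8 of NR3C2, the mineralocorticoid receptor gene, had 12.8 CPM in BT-20 and 0.596 CPM in the next highest line, a ratio of 21.4. A peak in intron 6 of 10 of HLCS, the gene of holocarboxylase synthetase, had 18.2 CPM in SUM-159PT and 0.37 CPM in the next line, a ratio of 49.2. A peak in intron 8 of 12 of TTC23 had 15.3 CPM in HCC1395 and 0.254 CPM in the next line, the highest ratio of the 9 (60.4). Each line had such a site, and the lowest ratio was that of HCC1937, 11.4, at intron 6 of 13 of MSI2, an RNA-binding protein gene of stem and progenitor cells, with 11.9 CPM against 1.04 CPM in the next line. The remaining lines had ratios of 22.0 at GALNT13 (SUM-149PT), 28.4 at TMEM132D (MDA-MB-231), 34.3 at LINC01515 (HCC1143), 40.7 at USP2-AS1 (MDA-MB-468) and 41.1 at LRRIQ1 (BT-549). Under the combination the sites kept 6.82 to 22.8 CPM in their own line, with 22.8 CPM at TTC23 and 6.82 CPM at MSI2. These sites were picked for the ratio, which is therefore a description.

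Under the combination, against DMSO, later intron peaks changed in both directions, with more rises than falls. Of 252051 tested, 5102 rose (2.02%; 2.29% of all 736873 peaks tested rose) and 3511 fell (1.39%; 1.43% of all peaks fell), at an adjusted p under 0.05 from the edgeR quasi-likelihood test with the line as block. Both shares were near those of all peaks. At least 2-fold changes were mostly rises, 2723 against 741 falls. Of these, 1845 rises and 604 falls were in weak peaks, with a mean log2 CPM under -1. In stronger peaks calls of any size were more often falls, with 194 rises and 271 falls at 2 to 3 log2 CPM and 49 and 171 above 3. The median over the tested later intron peaks was -0.021 on the log2 scale (0.009 with scaling by total counts), against -0.007 over all peaks. For first introns the shares were 2.39% and 1.34%, for intergenic peaks 2.4% and 0.64%, for exons 1.85% and 2.98%, and for promoters 3.48% and 3.06%. Without HCC1395, 3123 rose and 1819 fell, without BT-549, 3197 and 1833, and without HCC1937, 3208 and 1913. The rises came to 3268 without MDA-MB-468 and 3372 without MDA-MB-231, and the falls to 1819 to 2245 with each of the 9 lines left out in turn. Without the HCC1395 library that stood apart in DMSO, 5380 rose and 3279 fell.

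The shares called differed with where a later intron peak lay, first by distance to the nearest TSS. At 3 to 10 kb, 174 of 11146 rose (1.56%) and 362 fell (3.25%), with a median log2 fold of -0.119. At 10 to 50 kb, 921 of 63039 rose and 1597 fell, with a median of -0.121, and at 50 to 100 kb, 819 of 49455 rose and 756 fell, with a median of -0.064. Beyond 100 kb the medians were above 0 and rises outnumbered falls by more: 1860 of 82794 rose and 620 fell at 100 to 300 kb, with a median of 0.022. Over 300 kb away, 1328 of 45617 rose (2.91%) and 176 fell (0.386%), with a median of 0.124. First intron peaks had the same order of falls, 2.02% at 3 to 10 kb and 0.289% over 300 kb, with rises of 2.39% and 4.24%. Intergenic peaks had rises of 2.24% to 2.65% at every distance, and falls of 0.935% in the nearest bin and 0.351% in the farthest.

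The difference between the line's median over 300 kb and its median at 3 to 10 kb was above 0 in each of the 9 lines. It was 0.575 in MDA-MB-468, 0.241 in SUM-159PT, 0.118 in HCC1937, 0.118 in HCC1395 and 0.108 in SUM-149PT. The values were 0.053 in MDA-MB-231, 0.048 in BT-20, 0.044 in BT-549 and 0.009 in HCC1143, for a mean of 0.146 ± 0.174 (SD, n = 9 lines). MDA-MB-468 stood apart, and HCC1143 was near 0. Line values are log2 ratios with 0.1 CPM added, which draws low peaks toward 0, and are not on the scale of the fit, where the difference was 0.243 with all lines and 0.16 without MDA-MB-468. Peaks far from a start were also weaker on average (median log2 CPM -1.83 over 300 kb and -1.44 at 3 to 10 kb). Among peaks of 0 to 1 log2 CPM, rises were 2.04% at 3 to 10 kb and 5.86% over 300 kb, and falls 6.91% and 0.83%. Falls were less frequent over 300 kb than at 3 to 10 kb in each of 6 bins of mean level. Above 3 log2 CPM the rises had no such order, with 0% at 3 to 10 kb, 1.94% at 50 to 100 kb and 0.95% over 300 kb, and falls outnumbered rises there even over 300 kb (11 and 4 of 421).

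**Figure D2:**
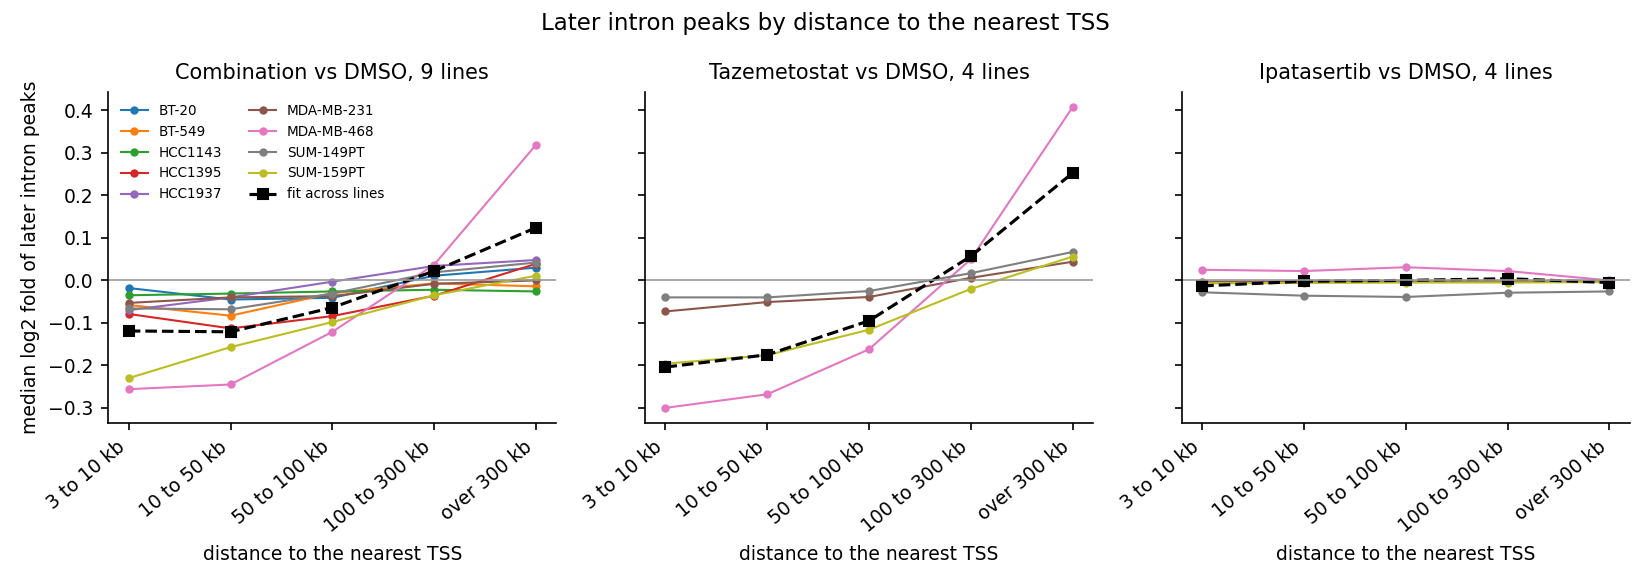
Median log2 fold against DMSO of later intron peaks in 5 bins of distance to the nearest TSS. Coloured points are single lines (log2 ratios with 0.1 CPM added) and black squares the fit across lines, for the combination (9 lines), tazemetostat and ipatasertib (4 lines each); the fit runs from -0.119 in the nearest bin to 0.124 in the farthest under the combination and from -0.204 to 0.253 under tazemetostat, and the lines stay between -0.039 and 0.031 under ipatasertib.

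The shares also differed with the level of the host gene's own promoter. Where the host's promoter had under 5 CPM in DMSO, 2229 of 73494 peaks rose (3.03%) and 482 fell (0.656%), with a median of 0.088. At 5 to 20 CPM, 1482 of 66976 rose and 744 fell, with a median of 0.007. At 20 to 60 CPM the split was the reverse, with 296 of 62390 risen (0.474%), 1619 fallen (2.59%) and a median of -0.166, and above 60 CPM 0 of 811 rose and 47 fell. The promoter level comes from the DMSO sums that also serve as the control, though at other peaks. Taking both properties together, hosts with a promoter under 5 CPM had rises of 2.63% to 3.41% at every distance, while hosts at 20 to 60 CPM had falls of 6.96% at 3 to 10 kb and 0.505% over 300 kb.

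Length of the host gene gave a like order. In hosts over 500 kb, 3.64% rose and 0.293% fell, and in hosts of at most 50 kb, 1.46% rose and 2.76% fell. The shares differed less by intron number: in intron 2, 2.32% rose and 1.28% fell, and in introns 6 to 10, 1.64% and 1.65%. Peaks in the last intron (1.78% rose and 1.35% fell) were close to those in other later introns (2.07% and 1.4%). Wider peaks were called more often: 4.08% rose and 2.75% fell above 800 bp, against 0.608% and 0.486% at 200 bp or less. The median log2 CPM was 1.2 in the widest and -2.53 in the narrowest of these bins.

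**Figure D3:**
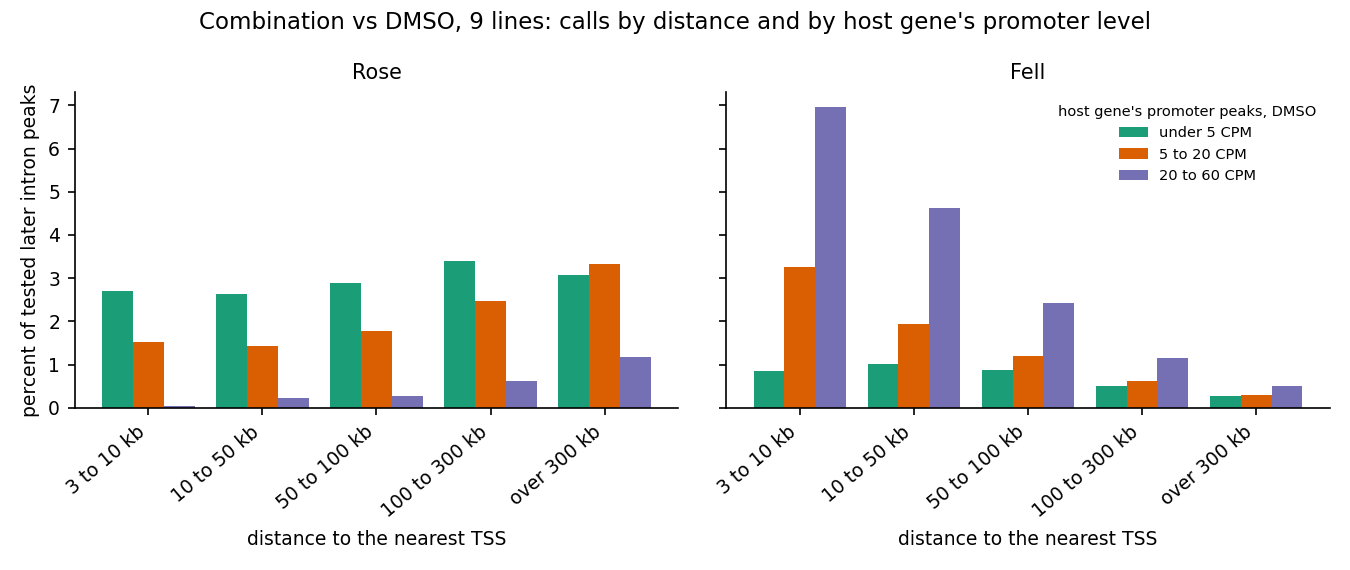
Later intron peaks called under the combination against DMSO, by distance to the nearest TSS and by the DMSO level of the host gene's promoter. Bars give the percentage of tested peaks that rose (left) and fell (right) for hosts with promoters under 5, at 5 to 20 and at 20 to 60 CPM; hosts under 5 CPM had 2.63% to 3.41% risen at every distance, and hosts at 20 to 60 CPM had 6.96% fallen at 3 to 10 kb and 0.505% over 300 kb.

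Folds of later intron peaks in the same gene were alike in part. Over 5892 host genes with at least 10 tested peaks, 41.1% of the variance of log2 folds lay between genes (a variance component, which is 0 on average where genes do not differ). In the 4979 of these with a promoter value, the median fold of a gene's later intron peaks and the fold of its promoter had a Pearson r of 0.613 and a Spearman rho of 0.624 across genes, which share libraries and are not independent replicates. Of 15139 hosts, 1539 had at least 1 risen peak and 2186 at least 1 fallen peak, and 113 had both.

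The hosts with most tested peaks differed in their share of rises. CNTNAP2, a neurexin-family gene, had 502 tested peaks, of which 41 rose and 0 fell (median 0.526), and PTPRN2, a phosphatase-like gene of secretory granules, had 497, of which 44 rose and 1 fell (0.341). CAMTA1 (15 of 447 rose), PTPRD (15 of 359), CDH4 (8 of 356) and CDH13 (6 of 353) had fewer rises, with 0 or 1 falls each, and the shares of CDH4 (2.25%) and CDH13 (1.7%) were not above the 2.29% of all peaks. Among the hosts with many risen peaks, FMN2, an actin nucleator gene, had 47 of 174 risen, PHACTR1 47 of 260 and ZFHX3, a homeodomain factor gene, 45 of 248. The most falls were in other hosts. TXNRD1 (thioredoxin reductase) had 19 of 52 fallen and 0 of 52 above 0, CHD2, a chromatin remodeller gene, 15 of 53, and CD55, a complement regulator gene, 14 of 25 (median -0.81). TBCD, a tubulin cofactor gene, had 14 of 60, PRKDC, the DNA-dependent protein kinase, 13 of 70, and USP36, a nucleolar deubiquitinase gene, 13 of 26 (median -0.795).

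Single peaks with a mean of at least 4 CPM (log2 CPM of 2) were fewer: 10771 were tested, of which 243 rose and 442 fell under the combination. The 12 largest rises with the same direction in at least 8 lines, with 1 peak for each host, ran from 0.98 to 1.18 on the log2 scale. In intron 2 of 34 of MYO16, an unconventional myosin gene of the brain (chr13:108699983-108701353), accessibility was 0.74, 5.98 and 14 CPM under the combination (lowest, median and highest line), against 0.578, 1.42 and 9.96 CPM in DMSO. The line ranges overlapped, yet the site was higher in 9 of 9 lines, and the log2 fold was 1.18 ± 0.256 (adjusted p 0.0265, edgeR). The call was kept in 15 of 21 other settings, with a highest adjusted p of 0.0725.

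Cell surface receptors and a transporter were among the rises. In intron 2 of 12 of ROR2, a receptor kinase for WNT5A (chr9:91770865-91771709), accessibility was 0.704, 4.45 and 16.2 CPM under the combination and 0.489, 2.73 and 14.4 CPM in DMSO. The site was higher in 9 of 9 lines, from 0.17 on the log2 scale in SUM-149PT to 2.62 in SUM-159PT (fit 1.09 ± 0.237, adjusted p 0.0251, edgeR). In intron 3 of 31 of PLXNA4, a semaphorin receptor gene (chr7:132463872-132465339), it was 1.08, 5.16 and 14.1 CPM under the combination and 0.592, 1.72 and 12.8 CPM in DMSO. The PLXNA4 fold was 1.01 ± 0.179 (adjusted p 0.00562, edgeR), with 9 of 9 lines higher and MDA-MB-468, at 2.57, far above the next line at 1.22. In intron 14 of 27 of ABCB4, which encodes a phospholipid translocator of hepatocytes (chr7:87435137-87436465), it was 1.36, 3.33 and 15.1 CPM under the combination and 0.653, 2.15 and 6.41 CPM in DMSO. ABCB4 had the most even response of the 12 rises, 0.29 in BT-20 to 1.44 in MDA-MB-468, with a fit of 1.05 ± 0.128 (adjusted p 0.000316, edgeR).

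Developmental regulators and structural genes were among them too. In intron 2 of 6 of GATA4, a transcription factor gene of heart and endoderm, accessibility was 2.3, 7.09 and 11.5 CPM under the combination and 1.15, 2.83 and 5.92 CPM in DMSO. It was higher in 8 of 9 lines, BT-20 being the exception at -0.17 (fit 1.06 ± 0.21, adjusted p 0.0146, edgeR), and the nearest TSS of this site is that of NEIL2. In intron 2 of 145 of SYNE1, the gene of the nuclear envelope protein nesprin-1 (chr6:152572137-152573233), it was 0.148, 5.2 and 12.8 CPM under the combination and 0.231, 3.01 and 6.17 CPM in DMSO, with 8 of 9 lines higher (1.01 ± 0.217, adjusted p 0.0182, edgeR). In intron 2 of 12 of SAMD4A, the gene of an RNA-binding translational repressor (chr14:54664539-54665789), it was 0.51, 7.18 and 9.29 CPM under the combination and 0.436, 2.45 and 7.24 CPM in DMSO. SAMD4A was higher in 9 of 9 lines (0.98 ± 0.148, adjusted p 0.00139, edgeR), and its largest line value was 1.74 in SUM-149PT, not in MDA-MB-468. The other 5 were in RGS7, a regulator of G-protein signalling (1.14 ± 0.281), ZNF521, a zinc-finger factor (1.14 ± 0.285), LINC01090 (1.06 ± 0.225), MED12L, a Mediator subunit paralogue (1.06 ± 0.228), and EYA4, a transcriptional coactivator (1.01 ± 0.251). Those in RGS7, ZNF521 and EYA4 had adjusted p-values of 0.0432 to 0.0473 in edgeR, and 12, 10 and 10 of the 21 other settings kept the call.

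The 12 largest falls, from -1.07 to -0.73, held genes of replication and metabolism. In intron 9 of 11 of RRM2, the small subunit gene of ribonucleotide reductase (chr2:10131770-10133749), accessibility was 0.935, 2.04 and 7.76 CPM under the combination and 1.77, 4.14 and 12.7 CPM in DMSO. RRM2 was lower in 9 of 9 lines, from -2.42 in MDA-MB-468 to -0.24 in SUM-149PT, with a fit of -1.07 ± 0.166 (adjusted p 0.00217, edgeR). In intron 10 of 18 of POLE2, a DNA polymerase epsilon subunit gene (chr14:49659574-49660443), it was 0.383, 1.95 and 9.75 CPM under the combination and 0.712, 5.24 and 12.4 CPM in DMSO, with 9 of 9 lines lower (-0.88 ± 0.146, adjusted p 0.0026, edgeR). Both genes serve DNA synthesis, RRM2 by making deoxynucleotides and POLE2 as a subunit of the polymerase that copies the leading strand.

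In intron 3 of 4 of H6PD, which encodes the hexose-6-phosphate dehydrogenase of the endoplasmic reticulum (chr1:9259360-9261131), accessibility was 0.269, 1.57 and 7.96 CPM under the combination and 0.984, 3.16 and 20.6 CPM in DMSO. H6PD was lower in 9 of 9 lines (-0.86 ± 0.145, adjusted p 0.00271, edgeR). In intron 23 of 30 of CYFIP1, a WAVE complex gene (chr15:22887338-22888851), it was 0.4, 3.06 and 7.83 CPM under the combination and 0.609, 6.06 and 16.6 CPM in DMSO, with 9 of 9 lines lower (-0.73 ± 0.114, adjusted p 0.00186, edgeR). The peak at the LOC105372339 start printed above (chr19:23565080-23565937) had 0.163, 1.32 and 10.3 CPM under the combination and 0.27, 2.21 and 28.9 CPM in DMSO, a fold of -0.98 ± 0.174 (adjusted p 0.00435, edgeR). Ranges over lines overlapped at all of these sites. The others lay in ZNF8-ERVK3-1 (-0.91), SH3PXD2A, the scaffold TKS5 of invadopodia (-0.79), ULK1, an autophagy kinase (-0.77), EEF1A1, translation elongation factor 1 alpha (-0.76), ALPK1 (-0.76), MED26, a Mediator subunit (-0.74), and BCL11A, a zinc-finger repressor (-0.74). Their adjusted p-values in edgeR ran from 0.00487 to 0.0305.

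**Figure D4:**
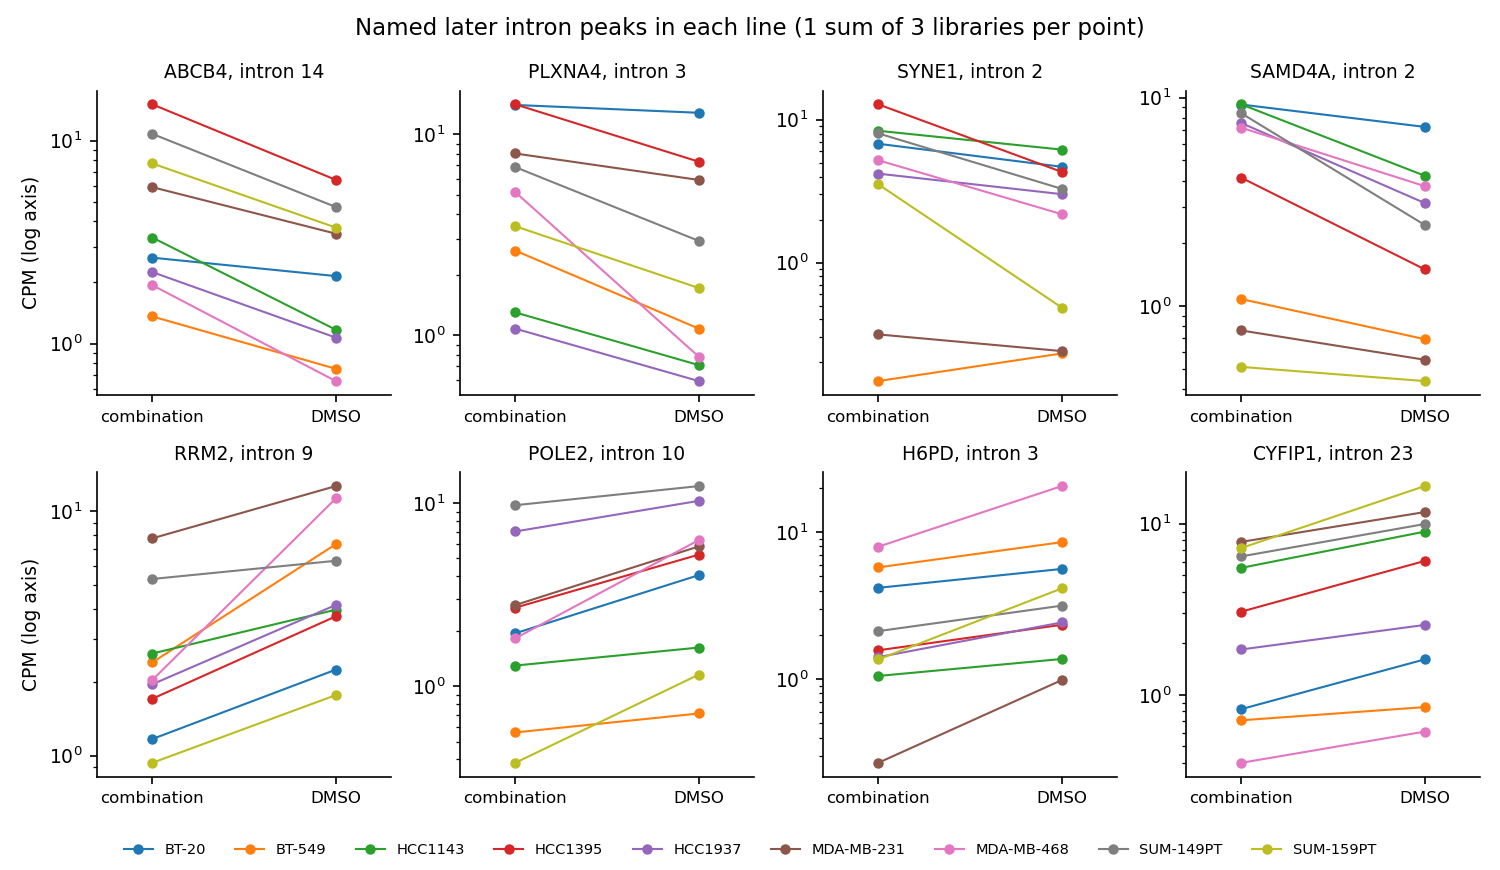
CPM (log axis) of 8 of the 24 named later intron peaks under the combination and in DMSO, with 1 coloured point for each line (the sum of 3 libraries) and a segment joining both treatments of a line. The upper row shows 4 rises and the lower row 4 falls, chosen after their values were seen; every line moved in the direction of its row at 7 of the 8 sites, and 8 of 9 lines did at SYNE1.

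In the 4 lines with single agents, tazemetostat alone changed many later intron peaks. Of 203909 tested, 3910 rose (1.92%; 1.87% of all 616325 peaks rose) and 1298 fell (0.637%; 1.9% of all peaks fell), in an edgeR quasi-likelihood test with the line as block. Rises were thus at the background share and falls below it, and the median was -0.018 (-0.03 over all peaks). At promoters 1.5% rose and 14.7% fell. Scaling by total counts in place of TMM gave 5410 rises and 453 falls, so that 92.3% of calls were rises and not 75.1%, and moved the median of all peaks by 0.181 and that of later intron peaks to 0.161. The calls rest on few lines: 101 rose and 7 fell without MDA-MB-468, 120 and 0 without SUM-159PT, 949 and 100 without MDA-MB-231, and the falls came to 466 without SUM-149PT.

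The order by distance was also there under tazemetostat, with medians of -0.204, -0.175, -0.095, 0.057 and 0.253 from the nearest to the farthest bin. The difference of the farthest and nearest bins was 0.708 in MDA-MB-468, 0.252 in SUM-159PT, 0.117 in MDA-MB-231 and 0.107 in SUM-149PT (mean 0.296 ± 0.283, SD, n = 4 lines). With total counts the bin medians were -0.023 at 3 to 10 kb and 0.434 over 300 kb, both higher than with TMM. The share of all counts that fell in later intron peaks was higher under tazemetostat in each of the 4 lines, by 2.37 percentage points in MDA-MB-468, 1.44 in SUM-159PT, 0.91 in MDA-MB-231 and 0.59 in SUM-149PT. Under the combination the difference from DMSO ranged from -0.77 points in HCC1395 to 1.76 in MDA-MB-468, above 0 in 7 of 9 lines (mean 0.397 ± 0.748, SD, n = 9). Promoter shares moved the other way under tazemetostat, by -4.3 to -1.44 points.

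Under tazemetostat several hosts had many risen peaks. In KIF26B, a kinesin gene, 49 of 215 rose, in CNTNAP2 48 of 393, in AFF3, a nuclear factor gene, 43 of 230, and in DLGAP2, a synaptic scaffold gene, 40 of 262. All 230 tested peaks of AFF3 had a log2 fold above 0, with a median of 1.396. Falls were fewer in each host. NR4A3, an orphan nuclear receptor gene, had 9 of 28 (median -0.995), USP36 9 of 25, RPTOR, the mTORC1 scaffold, 8 of 87, and SLC7A5, an amino acid transporter gene, 8 of 9 (median -1.051). ARHGAP35 had 7 of 33 and CLEC16A 6 of 66.

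Among the stronger peaks, 56 of 11855 rose and 516 fell under tazemetostat. In the order MDA-MB-231, MDA-MB-468, SUM-149PT and SUM-159PT, the GATA4 site had 6.26, 9.26, 4.24 and 9.42 CPM under tazemetostat and 2.74, 2.95, 2.33 and 1.86 CPM in DMSO. The groups did not overlap, and the log2 fold was 1.5 ± 0.224 (adjusted p 0.00688, edgeR). A site in intron 2 of 16 of CACNB4, a calcium channel subunit gene (chr2:151927224-151928826), had 4.54, 8.16, 3.86 and 8.19 CPM under tazemetostat and 1.42, 3.03, 2.73 and 1.7 CPM in DMSO. It did not overlap either, with the 4 treated values above all 4 in DMSO (1.41 ± 0.244, adjusted p 0.0126, edgeR). At intron 20 of 21 of MAGI2, a synaptic scaffold gene, the site had 2.46, 1.99, 13.5 and 6.42 CPM under tazemetostat and 1.25, 0.251, 8.58 and 1.11 CPM in DMSO. SUM-149PT was already open there in DMSO, so the groups overlapped (1.59 ± 0.38, adjusted p 0.0379, edgeR). Of 14 other settings, 13 kept the call at GATA4, 11 at CACNB4 and 8 at MAGI2. Sites in ENTREP2 (1.38 ± 0.278) and LINC01727 (1.37 ± 0.287) completed the 5 largest rises.

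The largest fall was in intron 2 of 6 of PVR, which encodes the poliovirus receptor CD155 (chr19:44648485-44649252). It had 1.09, 6.46, 1.68 and 0.582 CPM under tazemetostat and 1.65, 14.2, 3.55 and 2.93 CPM in DMSO, in the same line order, a fold of -1.25 ± 0.214 (adjusted p 0.0115, edgeR). MDA-MB-468 was the highest line in both groups, and each line was lower when treated. Intron 12 of 33 of POLR1A, the large subunit gene of RNA polymerase I, held a site of 1.04, 9.44, 2.1 and 0.2 CPM under tazemetostat and 1.67, 21.1, 3.27 and 1.34 CPM in DMSO (-1.1 ± 0.292, adjusted p 0.0461, edgeR). The call at PVR was kept in 12 of 14 other settings and that at POLR1A in 6. The other 3 falls were in ZNF8-ERVK3-1 (-1.15 ± 0.269), RMDN2 (-1.09 ± 0.236) and ARFGAP3, an ARF GTPase activator (-1.05 ± 0.249).

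Ipatasertib alone gave 0 rises and 0 falls among 203909 later intron peaks in edgeR (0% of all 616325 peaks in each direction), and 0 and 0 in DESeq2, with 3709 at an unadjusted p under 0.05. Bin medians by distance were -0.013, -0.002, 0.0, 0.004 and -0.005, and the far minus near difference was -0.025 in MDA-MB-468 and 0.001 to 0.003 in the other lines. The combination against tazemetostat also had 0 rises and 0 falls in edgeR (0% of all peaks in each direction), with 4000 at an unadjusted p under 0.05. The non-additive contrast, combination minus each agent plus DMSO on the log2 scale, gave 0 above and 0 below in edgeR (0% of all peaks), with 1764 at an unadjusted p under 0.05. These comparisons have 4 lines. Recovery was read in simulated counts with a fixed dispersion, where changes were placed only in peaks with a log2 CPM of 2 or more. That level was reached by 11855 of the 203909 later intron peaks, so the rates do not cover the weaker ones. Over 9 lines for the combination, 90% of changes of 1 on the log2 scale and 7% of changes of 0.5 were recovered. In the tazemetostat comparison the rates were 32% and 0%. Smaller effects of ipatasertib were not detectable here.

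Individual sites still differed in how their values were split between the agents. SAMD4A had 0.727, 6.85, 8.02 and 0.469 CPM under the combination, 0.609, 3.62, 3.8 and 0.437 CPM under tazemetostat, 0.695, 8.04, 4.8 and 0.743 CPM under ipatasertib and 0.534, 3.61, 2.33 and 0.409 CPM in DMSO, in the same order of lines. Its values under ipatasertib were above DMSO in all 4 lines, but the folds, 0.27 ± 0.24 under tazemetostat (adjusted p 0.535, edgeR) and 0.93 ± 0.236 under ipatasertib (adjusted p 1.0, edgeR), did not pass. RRM2 had 7.4, 1.95, 5.04 and 0.859 CPM under the combination, 8.71, 5.14, 6.25 and 1.24 CPM under tazemetostat, 9.4, 5.43, 5.08 and 1.28 CPM under ipatasertib and 12.3, 10.9, 5.98 and 1.66 CPM in DMSO. Its folds were -0.53 ± 0.227 under tazemetostat and -0.55 ± 0.229 under ipatasertib, and neither passed. Tazemetostat calls among the other falls of the 9-line comparison included POLE2 (-0.82, adjusted p 0.0329), H6PD (-0.97, 0.0247), CYFIP1 (-0.66, 0.0229) and ULK1 (-0.95, 0.0259), for which the ipatasertib folds were -0.21 to -0.03. Both comparisons use the same DMSO samples.

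Against ipatasertib, the combination gave 4018 rises (1.97%; 1.93% of all peaks rose) and 1275 falls (0.625%; 1.31% of all peaks fell) among later intron peaks, with a median of -0.033. Total counts gave 5018 and 403, so that 92.6% of calls were rises and not 75.9%, and moved the median of all peaks by 0.171 and that of later intron peaks to 0.138. Without MDA-MB-468 there were 265 rises and 13 falls, without SUM-159PT 229 and 9, without MDA-MB-231 1936 and 193, and the falls came to 506 without SUM-149PT. The GATA4 site had 5.95, 10.9, 4.01 and 10.2 CPM under the combination and 2.39, 2.79, 2.01 and 1.76 CPM under ipatasertib, with no overlap (1.72 ± 0.227, adjusted p 0.00221, edgeR). The CACNB4 site had 4.02, 7.62, 2.62 and 8.53 CPM under the combination and 1.27, 2.48, 1.45 and 1.89 CPM under ipatasertib, again with no overlap (1.63 ± 0.249, adjusted p 0.00518, edgeR). ENTREP2 (1.62), MAGI2 (1.55) and GRIK4, a kainate receptor subunit gene (1.47), followed. The largest falls were in ARFGAP3 (-1.13), PAFAH1B1, the lissencephaly gene LIS1 (-1.12), ZNF8-ERVK3-1 (-1.12), POLE2 (-1.09) and H6PD (-1.08). For the combination against DMSO over 9 lines, GATA4 and these falls passed. CACNB4 (0.72), ENTREP2 (0.72), MAGI2 (0.93) and GRIK4 (0.39) did not, with adjusted p-values of 0.0826 to 0.628 in edgeR.

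Host genes were also grouped into 14 lists by function, chosen with earlier results of these data known, and each list is described by counts and medians with no test of its own. The lists were not matched for host promoter level, host length or distance to a TSS, with which the shares also differed. In hosts of any function with a promoter under 5 CPM, 3.03% of later intron peaks rose under the combination. Among 40 developmental targets of PRC2, 33 had later intron peaks, and 208 of 2055 tested peaks rose under the combination (10.1%, against 2.29% of all peaks) and 0 fell, with a median of 0.396. The 2 sites of largest fold, among changed peaks above a mean log2 CPM of 1, lay in intron 2 of 17 of ZFHX3. That at chr16:73615143-73616656 had 1.14, 3.62 and 5.07 CPM under the combination and 0.473, 0.726 and 2.01 CPM in DMSO, and rose by 1.75 ± 0.179 in 9 of 9 lines (adjusted p 8.62e-05, edgeR). The EBF2 site, in intron 6 of 15 of a factor gene of adipose and neural development, rose by 1.23 ± 0.176 (0.241, 3.56 and 8.94 CPM under the combination and 0.215, 0.936 and 3.33 CPM in DMSO). Under tazemetostat 169 of 1614 rose (10.5% of the list, against 1.87% of all peaks) and 1 fell, with a median of 0.649. The ZFHX3 site had 2.03 to 4.8 CPM under tazemetostat and 0.48 to 0.929 CPM in DMSO, with no overlap, a rise of 2.16 ± 0.262 (adjusted p 0.00186, edgeR). The rises of this list under the combination came to 138 when MDA-MB-468 was left out and to 135 when BT-549 was. Under tazemetostat they came to 8 without MDA-MB-468, 8 without SUM-159PT and 60 without MDA-MB-231.

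Genes of synapses and neuronal adhesion had the most peaks. All 40 had later intron peaks. Under the combination 237 of 5161 rose (4.59%, against 2.29% of all peaks) and 8 fell (0.155%, against 1.43%), with a median of 0.273. Host length was not matched: in hosts over 500 kb of any function, 3.64% of later intron peaks rose, with a median of 0.165. In intron 11 of 21 of CTNNA2, the neuronal alpha-catenin gene, accessibility was 0.0736, 1.67 and 19.7 CPM under the combination and 0.0762, 1.14 and 9.58 CPM in DMSO, and it rose by 0.97 ± 0.179, with 7 of 9 lines higher (adjusted p 0.00512, edgeR). In intron 4 of 35 of SLIT3, an axon guidance ligand gene, it was 0.49, 2.17 and 9.02 CPM under the combination and 0.381, 1.48 and 4.96 CPM in DMSO, a rise of 0.9 ± 0.177 (adjusted p 0.00719, edgeR). Under tazemetostat 195 of 4037 rose (4.83%, against 1.87% of all peaks) and 2 fell (0.0495%, against 1.9%), with a median of 0.467. Intron 3 of 6 of NLGN1, the gene of the synaptic adhesion protein neuroligin, held a site with 0.674 to 9.77 CPM under tazemetostat and 0.581 to 5.41 CPM in DMSO (1.28 ± 0.301, adjusted p 0.0301, edgeR). The list's rises under the combination came to 120 without MDA-MB-468, 140 without HCC1395 and 145 without HCC1937. Under tazemetostat they came to 3 without MDA-MB-468, 11 without SUM-159PT and 74 without MDA-MB-231.

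Lists of cell cycle and housekeeping genes went the other way. Of cell cycle and replication genes, 0 of 202 peaks rose and 16 fell under the combination (7.92%, against 1.43% of all peaks), with a median of -0.455. Neither list was matched for host promoter level or distance. In hosts of any function with promoters at 20 to 60 CPM, 6.96% of later intron peaks fell at 3 to 10 kb and 4.63% at 10 to 50 kb. Besides the RRM2 site above, another in RRM2 (-0.73 ± 0.185) and a site in intron 7 of 9 of AURKA, the mitotic kinase gene, fell. The AURKA site had 0.343, 2.25 and 8.45 CPM under the combination and 0.661, 3.97 and 8.83 CPM in DMSO (-0.64 ± 0.176, adjusted p 0.0426, edgeR). Of 25 housekeeping genes, 10 had later intron peaks, and 9 of 81 fell (11.1%) with 0 risen and a median of -0.463. The SDHA site, in intron 19 of 23 of a succinate dehydrogenase subunit gene, had 0.404, 0.99 and 7.88 CPM under the combination and 1.21, 1.83 and 6.56 CPM in DMSO (-0.83 ± 0.186, adjusted p 0.0157, edgeR). The cell cycle falls came to 6 without BT-549, 8 without HCC1395, 10 without HCC1937 and 9 without replicate 2. With a line left out in turn, the housekeeping falls ranged from 3 (without HCC1395) to 9. Under tazemetostat 1 of 164 cell cycle peaks (0.61%) and 2 of 64 housekeeping peaks (3.12%) fell, against 1.9% of all peaks, with medians of -0.39 and -0.591.

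Of the YAP, TEAD and AP-1 genes, 18 of 404 peaks fell (4.46%, against 1.43% of all peaks) and 0 rose under the combination, with a median of -0.218. In intron 2 of 8 of YAP1, the Hippo pathway coactivator gene, accessibility was 1.12, 2.92 and 6.31 CPM under the combination and 0.966, 4.55 and 11 CPM in DMSO (-0.5 ± 0.138, adjusted p 0.0403, edgeR). Sites in FOSL2, an AP-1 subunit gene (-0.54 ± 0.132), and DUSP5, a MAP kinase phosphatase gene (-0.49 ± 0.128), also fell. With total counts the falls of this list came to 9, and with a line left out in turn they ranged from 5 (without HCC1395) to 12. Of sterol and fatty acid genes, 10 of 244 fell (4.1%) and 0 rose (median -0.246). With a line left out these falls ranged from 3 (without MDA-MB-468) to 10. Under tazemetostat 6 of 349 (1.72%) and 2 of 217 (0.922%) peaks of these lists fell and 0 rose. Both shares were below the 1.9% of all peaks that fell. Among these falls were a site in WWTR1, the YAP paralogue TAZ (-0.72 ± 0.19), and a site in FASN, fatty acid synthase (-0.78 ± 0.218).

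In the PI3K, AKT, mTOR and FOXO list, which holds the pathway that ipatasertib targets, 2 of 825 peaks rose (0.242%, against 2.29% of all peaks) and 16 fell (1.94%, near the 1.43% of all peaks) under the combination, with a median of -0.129. A site in intron 6 of 11 of RPTOR had 0.236, 1.2 and 5.11 CPM under the combination and 0.501, 2.76 and 7.47 CPM in DMSO, and was lower in 9 of 9 lines (-0.68 ± 0.143, adjusted p 0.0107, edgeR). A site in PHLPP1, a phosphatase gene that opposes AKT, also fell (-0.88 ± 0.247, adjusted p 0.0473, edgeR). Under tazemetostat 1 of 664 rose and 13 fell (1.96%, against 1.9% of all peaks), with falls in IGF1R, the IGF1 receptor gene (-0.65 ± 0.156 and -0.6 ± 0.159), and FOXO3 (-0.64 ± 0.174). The 13 falls lay in 4 of the 27 genes of the list with later intron peaks. With a line left out, the falls of the list ranged from 7 to 13 under the combination and were 0 under tazemetostat whichever of the 4 lines was left out. Under ipatasertib itself 0 of 664 passed, with a median of 0.018, and 0 passed in each of the other 13 lists, whose medians ran from -0.079 to 0.053.

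The list of PRC2 subunits and other chromatin regulators had 6 rises (0.519%, against 2.29% of all peaks) and 20 falls (1.73%, near the 1.43% of all peaks) in 1156 peaks under the combination, with a median of -0.187. ARID1A, a SWI/SNF subunit gene, had a site in intron 4 of 19 with 0.298, 1.32 and 10.6 CPM under the combination and 0.799, 2.44 and 14.1 CPM in DMSO, lower in 9 of 9 lines (-0.55 ± 0.122, adjusted p 0.0144, edgeR). A site in the deacetylase gene HDAC9 rose (0.52 ± 0.137) and a site in the methyltransferase gene NSD2 fell (-0.51 ± 0.131). Under tazemetostat 6 of 865 rose (0.694%, against 1.87% of all peaks) and 12 fell (1.39%, against 1.9%), with a rise in CECR2, a bromodomain gene (1.4 ± 0.293), and falls at 2 sites in DNMT1, the maintenance DNA methyltransferase (-0.74 ± 0.171 and -0.68 ± 0.167). With a line left out, the falls ranged from 8 to 14 under the combination and from 0 to 4 under tazemetostat.

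Breast lineage lists had shares of rises below that of all peaks. Of luminal genes, 1 of 371 peaks rose (0.27%, against 2.29% of all peaks) and 9 fell (2.43%, against 1.43%) under the combination. CDH1 (E-cadherin) had a site in intron 2 of 15 with 1.18, 10.4 and 19.6 CPM under the combination and 1.39, 12.1 and 27.6 CPM in DMSO (-0.4 ± 0.0987, adjusted p 0.0243, edgeR), and EHF, an epithelial ETS factor gene, a site at -0.38 ± 0.105. The luminal falls lay in 2 of the 16 luminal genes with later intron peaks, and they came to 0 without HCC1937. Of basal genes, 6 of 456 rose (1.32%) and 5 fell (1.1%), with falls at LAMA3, a laminin chain gene (-0.75 ± 0.168), and at 2 sites in CDH3, P-cadherin (-0.44 ± 0.0978 and -0.42 ± 0.118). The 6 basal rises lay in 1 of the 13 basal genes with later intron peaks, and they came to 0 without MDA-MB-468. Of mesenchymal genes, 1 of 504 rose (0.198%) and 3 fell (0.595%), all weaker than 2 CPM on average. The largest fold above that level, 0.56 ± 0.224 at TCF4, did not pass (adjusted p 0.165, edgeR). Of genes of gp130, STAT3 and mammary involution, 0 of 126 rose and 1 fell, at BCL3, an IkB-family coregulator gene, with 10.3, 20.8 and 32.5 CPM under the combination and 12.2, 24.1 and 45.2 CPM in DMSO (-0.25 ± 0.0677, adjusted p 0.0371, edgeR). Under tazemetostat these 4 lists had 0 to 4 rises (at most 1.06%, against 1.87% of all peaks) and 0 to 2 falls (at most 2.06%, against 1.9%). Among them, NRP1, a coreceptor for semaphorins and VEGF, had a site in intron 2 of 15 with 12.4 to 14.5 CPM under tazemetostat and 17.1 to 21.9 CPM in DMSO, with no overlap (-0.45 ± 0.101, adjusted p 0.0241, edgeR), and EGFR a site of 13.4 to 45.6 CPM under tazemetostat and 18.9 to 63.4 CPM in DMSO (-0.34 ± 0.0946, adjusted p 0.0465, edgeR).

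A few genes of cells that the cultures should not hold also had risen peaks. Of endothelial genes, 15 of 262 peaks rose (5.73%, against 2.29% of all peaks) and 1 fell under the combination. Of immune genes, 12 of 212 rose (5.66%) and 3 fell (1.42%, against 1.43% of all peaks). The rises lay in 3 of the 15 endothelial genes and 3 of the 18 immune genes that had later intron peaks. A site in intron 16 of 29 of FLT1, a VEGF receptor gene, had 1.08, 1.92 and 11.1 CPM under the combination and 0.502, 1.09 and 7.95 CPM in DMSO (1.0 ± 0.154, adjusted p 0.00158, edgeR). At VWF, the von Willebrand factor gene, a site in intron 15 of 51 had 0.721, 4.58 and 9.42 CPM under the combination and 0.508, 2.34 and 7.07 CPM in DMSO (0.9 ± 0.151, adjusted p 0.00275, edgeR). Both were higher in 9 of 9 lines. A site in intron 3 of 3 of IKZF1, the lymphoid factor Ikaros, had 0.763, 3.69 and 6.76 CPM under the combination and 0.576, 1.5 and 2.7 CPM in DMSO (1.04 ± 0.201, adjusted p 0.00767, edgeR). At PTPRC, the leukocyte marker CD45, a site in intron 2 of 6 had 0.702, 5.11 and 10.5 CPM under the combination and 0.314, 2.77 and 7.01 CPM in DMSO (0.72 ± 0.145, adjusted p 0.00836, edgeR). The endothelial rises ranged from 10 to 17 with a line left out, and the immune rises came to 7 without BT-549 and 7 without replicate 2. Under tazemetostat 6 of 215 endothelial peaks (2.79%) and 9 of 185 immune peaks (4.86%) rose, against 1.87% of all peaks, and 0 fell. These rises lay in 2 endothelial genes and 1 immune gene. They came to 0 without MDA-MB-231 in the endothelial list and to 0 without MDA-MB-468 or SUM-159PT in the immune list.

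Promoters of the defining markers of those cells were read beside this. The 3 endothelial markers PECAM1, CDH5 and VWF summed to 4.85, 10.2 and 24.1 CPM of promoter counts under the combination (lowest, median and highest line) and 5.48, 8.94 and 23.3 CPM in DMSO. Of the 3 immune markers, PTPRC and MS4A1 had no promoter peak, and CD3E had 0.275, 1.21 and 1.91 CPM under the combination and 0.32, 1.04 and 2.1 CPM in DMSO. Under tazemetostat the endothelial sum was 5.84 to 12.1 CPM (5.98 to 16 CPM in DMSO) and CD3E had 0.921 to 2.04 CPM (0.828 to 2.1 CPM in DMSO). The part of other cells in these rises was not tested.

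**Figure D5:**
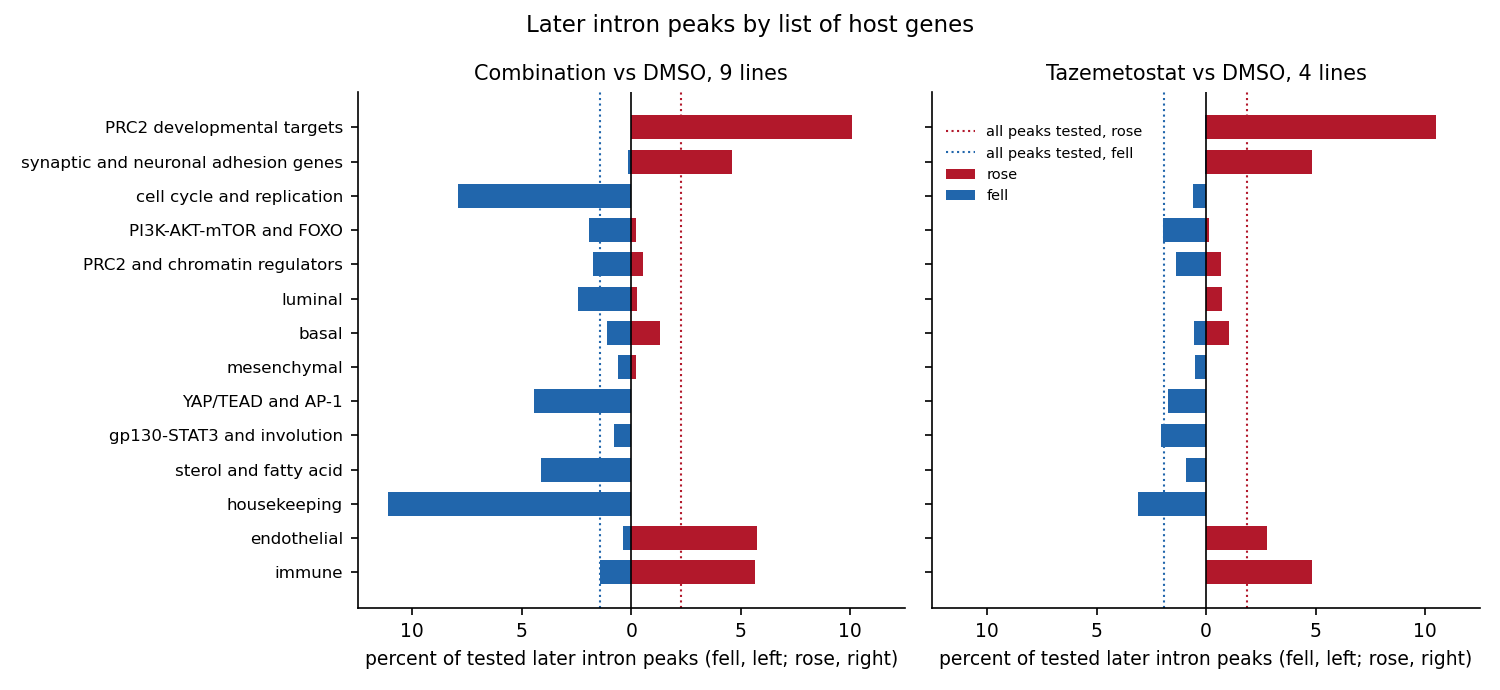
Later intron peaks by list of host genes, for the combination over 9 lines and tazemetostat over 4. Bars give the percentage of tested peaks that rose (right of 0) and fell (left of 0) in each of 14 lists, and dotted lines the shares over all peaks; PRC2 developmental targets had 10.1% risen and 0 fallen under the combination, and housekeeping genes 0 risen and 11.1% fallen.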

How the data were processed

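ATAC-seq counts of 78 libraries (26 groups of 3) were analysed. The authors deposited unnormalised whole-number counts for 861439 peaks on hg38, and an annotation giving the class, transcript and TSS distance of each. MACS2 called the peaks and featureCounts counted reads, per the submitters' processing notes. The sources used here do not give versions, the aligner, the handling of duplicate reads or a shift to the Tn5 cut. Deduplication lowers counts most at dense sites, and a shift of a few bases matters little over whole peaks.

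Counts of the 3 replicates were added up, giving 1 sample per line and treatment. Peaks passing filterByExpr (minimum count 10) went into edgeR 4.0.16 (quasi-likelihood test, TMM, robust, line as block) in R 4.3.3, with Benjamini-Hochberg adjustment over all peaks at 0.05. Combination against DMSO used 18 sums, the comparisons with single agents 16. The dispersion trend came from a seeded sample of 100000 peaks. SE is the log2 fold over the square root of F. A host gene is the gene of the intron's transcript. The fits were tested on simulated counts. Sequences are RefSeq promoter windows.

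The peaks, host gene lists and tests were chosen with earlier results of these data known. Named peaks passed the threshold, averaged a log2 CPM of 2 or more and moved 1 way in 8 or 9 of 9 lines (4 of 4 with single agents). The 12 largest folds each way (5 each way with single agents) were taken, 1 for each host gene. For the lists they are up to 3 of largest fold above a mean log2 CPM of 1, and for hosts the 6 with most tested, risen or fallen peaks. Alternatives were DESeq2 1.42.0, other scalings, no filter, left-out lines and replicates, and a replicate block. A dispersion trend from all peaks was added after the data were seen. Some genes that these rules name are not reported here.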

Additional observations from a re-analysis of the deposited data

Results flagged for a closer look

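Dixon's test at the 95% level was applied to 54 sets of line values, and in 3 of them a line lay apart from the others. Chance gives about 1 in 20.

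The difference between the median log2 fold of later intron peaks over 300 kb from a TSS and that at 3 to 10 kb was 0.575 in MDA-MB-468 under the combination against DMSO, and 0.241 in the next line, SUM-159PT.

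Under ipatasertib against DMSO the same difference was -0.025 in MDA-MB-468 and 0.001 in the next of the 4 lines.

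At the site in intron 3 of PLXNA4 the log2 ratio of combination over DMSO was 2.57 in MDA-MB-468 and 1.22 in the next of the 9 lines.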

How the results depend on the processing

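No named site and no difference between distance bins changed direction under any alternative. With total counts the median over later intron peaks, which has no test, turned from below to above 0: it was 0.009 under the combination, 0.161 under tazemetostat and 0.138 for the combination against ipatasertib. Under ipatasertib it was -0.001 with TMM and between -0.078 and 0.025 with other scalings. Leaving out lines or replicates, the combination over 9 lines gave 3123 to 5380 rises and 1819 to 3279 falls. Under tazemetostat the range was 101 to 4125 rises and 0 to 1822 falls, and for the combination against ipatasertib 229 to 4437 rises and 9 to 2200 falls. Abundance-trended offsets gave 1232 rises and 251 falls for tazemetostat, and 1700 and 413 for the combination against ipatasertib. Falls under tazemetostat were 2518 with DESeq2, 600 with no filter and 453 with total counts. Against ipatasertib they were 3000, 658 and 403. The cause was not tested. At 0.5 CPM 19529 later intron peaks were open in all 9 lines, and at 2 CPM 3954. The difference between the farthest and nearest distance bins ran from 0.16 to 0.271 under the combination and from 0.269 to 0.6 under tazemetostat. All 24 named sites of the combination kept their direction, and 14 of them kept the call in all 21 alternatives.

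Replicate numbers did not pair the samples: the 27 correlations of same-numbered libraries ran from -0.0379 to 0.0316, with 0 over 0.1. A replicate block was also fitted to single libraries. It counts the 3 libraries of a line and treatment as separate samples, and its error mixes differences between lines with those between libraries. Its larger counts of calls therefore do not come from more independent samples. It gave 22410 rises and 20826 falls for the combination, 24045 and 18617 for tazemetostat, and 82 and 11 for ipatasertib. For combination against tazemetostat the counts were 113 and 67, and for combination against ipatasertib 23282 and 20982.

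Limits: 4 lines carry the single agents, so small effects were not detectable there; most of these sites are weak in each line; and 1 summed sample for each line and treatment leaves no estimate of spread within a line.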
